A study of Mus musculus with 9 samples.

Results

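Activated liver fibroblasts of mice treated with carbon tetrachloride (CCl4-fib) were compared with steady-state hepatic stellate cells (HSCs) over all genes. The libraries were chosen by their sample titles, 3 of CCl4-fib and 3 of HSCs, which makes 6 of the 9 RNA sequencing libraries of the series. HSCs were collected by density gradient centrifugation from untreated livers of wild-type C57BL/6J mice, without a sort. The study's methods report a high purity of isolated HSCs, judged by cell shape and by autofluorescence under UV light. CCl4-fib came from C57BL/6J mice that carried the Col1a2-GFP transgene (green fluorescent protein under a promoter of the collagen gene Col1a2) and that received CCl4 by injection into the peritoneum 2 times per week for 8 weeks, and they were sorted as live (7-AAD-) CD45- GFP+ cells. The groups therefore differ in transgene, treatment and isolation at once, and the parts of these in any difference cannot be told apart. The remaining 3 libraries (NASH-fib) held GFP+ cells, sorted in the same way, of Col1a2-GFP mice that also lacked the melanocortin 4 receptor (MC4R-KO) and were fed Western diet for 20 weeks from a young adult age. The age of the other mice is not given in the sources used here. Each library was made from RNA of cells pooled from 3 to 5 mice, so a replicate is a pool, and in bulk RNA fewer cells of a type and less RNA per cell cannot be told apart.

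HSCs are the vitamin A-storing pericytes of the liver sinusoid. At rest they take up retinol, esterify it with lecithin retinol acyltransferase and keep it in lipid droplets. When the liver is injured, they and other mesenchymal cells of the liver (portal fibroblasts, mesothelial cells) can turn into myofibroblasts that contract and lay down fibrillar collagen. Carbon tetrachloride is a solvent that is turned into a toxic radical by hepatocytes around the central vein, and its repeated injection is a standard way to make a mouse liver fibrotic.

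Values are normalised read counts, which sum to the same total in every library, and groups of values are given in the order of replicates 1, 2 and 3, with HSCs before CCl4-fib. Between 3071070 and 3825522 reads per library lay on genes in HSCs and between 4687349 and 5634273 in CCl4-fib. Across tested genes (no independent replicates), correlations of log2 values were between 0.914 and 0.937 for the pairs of CCl4-fib libraries and between 0.833 and 0.914 for the pairs of HSC libraries. The median SD of log2 values within a group was 0.37 in CCl4-fib and 0.66 in HSCs.

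Replicates 2 and 3 of HSCs departed from each other in a way that followed the GC content of the genes. When the genes were divided by GC content into 5 bins of equal size, in the bin of lowest GC content HSC replicate 2 lay above the other HSC libraries by a median of 0.60 on the log2 scale, and in the bin of highest GC content it lay 0.73 below them. HSC replicate 3 showed the opposite slope, from -0.47 to 0.62, while no CCl4-fib library departed by more than 0.26 in either direction. The share of genes called higher in CCl4-fib ran from 8.81% in the lowest bin to 24.8% in the highest, and that called lower ran from 15.7% to 6.19%. Without HSC replicate 2 the shares called higher were 7.97% and 15.9%. With a smooth curve on GC content taken out of each library, they were 11.2% and 16.1%.

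**Figure D1:**
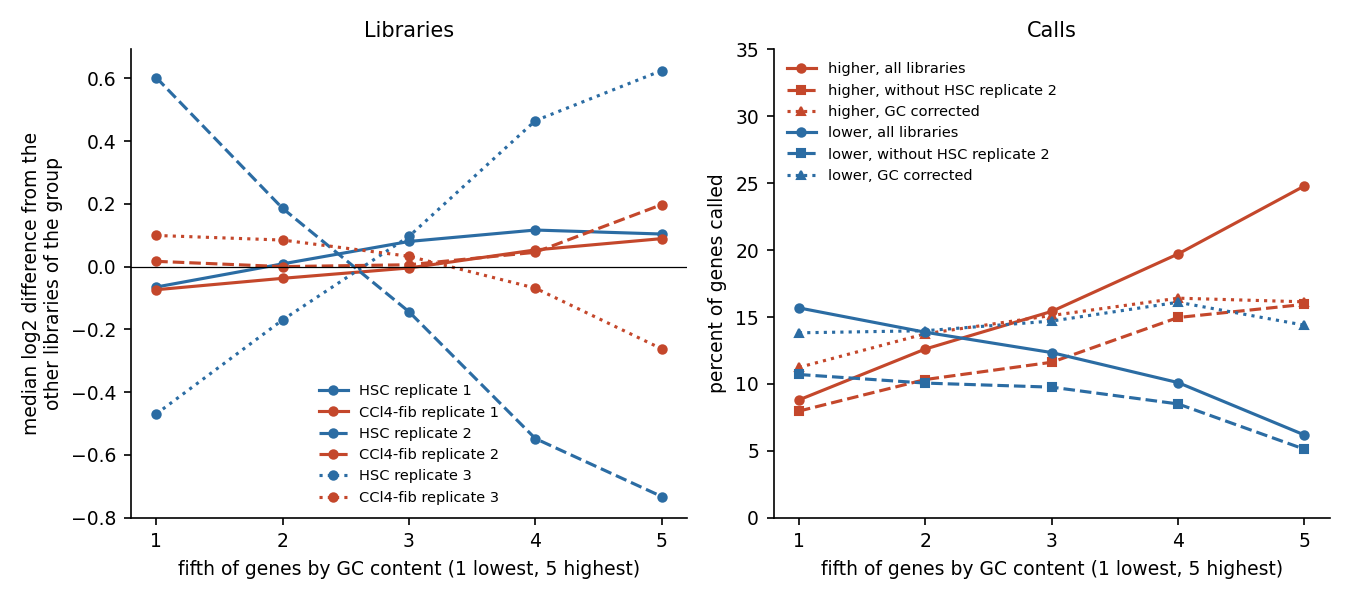
The left panel plots, for each library, the median log2 difference from the other libraries of its group over 5 bins of genes by GC content, and the right panel the percentage of genes called higher or lower in CCl4-fib in each bin with all libraries, without HSC replicate 2 and after a GC correction. HSC replicate 2 falls from 0.60 to -0.73 across the bins, and the share called higher rises from 8.81% to 24.8% with all libraries.

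The labels were checked with the genes that the sort used and with markers. Col1a2, whose promoter drives the GFP, had values of 1291, 2065 and 930.1 in HSCs, against 12466, 15534 and 13945 in CCl4-fib. Ptprc, which encodes the leukocyte antigen CD45 that the gate left out, was at 88.8, 315 and 258 in HSCs and 8.73, 25.5 and 24.8 in CCl4-fib. Both genes bear on how the cells were chosen, so their difference between groups is no finding. The defining stellate cell genes Lrat, Reln and Lhx2 were well above the floor in all HSC libraries, and those of hepatocytes, sinusoidal endothelium and Kupffer cells were detected there too. The 29 hepatocyte markers summed to between 50413 and 104083 in HSC libraries, 1.13% to 2.33% of a library, and to between 4131 and 7342 in CCl4-fib. The 25 sinusoidal endothelial markers summed to between 30326 and 44368 in HSCs and to between 917 and 1184 in CCl4-fib. The 22 macrophage and Kupffer markers summed to between 10054 and 25250 in HSCs and to between 615 and 1207 in CCl4-fib. The 19 lymphocyte markers were low everywhere, at 188 to 711 in HSCs and 67.5 to 74.0 in CCl4-fib, where the defining genes Cd3e and Nkg7 were at 0 in all 3 libraries. Markers of these other cell types were thus higher in the HSC libraries, and their part in the genes that are lower in CCl4-fib was not tested.

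**Figure D2:**
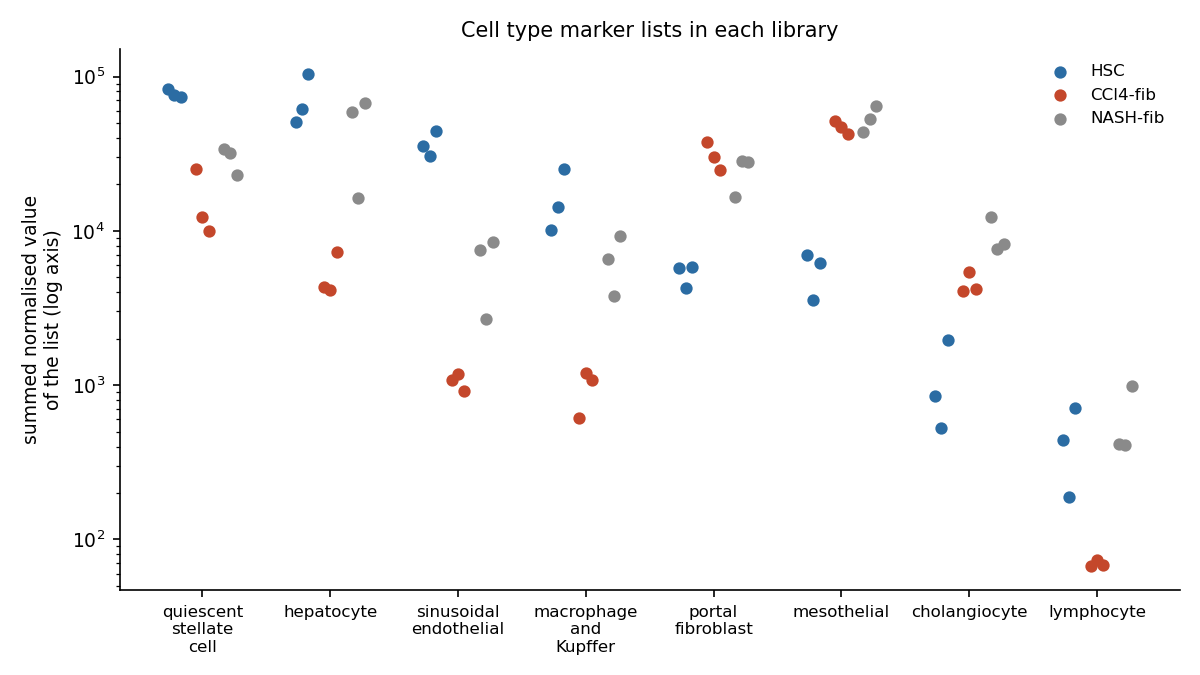
Summed normalised value (log axis) of each list of cell type markers in the 9 libraries, with 1 point per library. Hepatocyte, sinusoidal endothelial and macrophage markers lie higher in the 3 HSC libraries than in the 3 CCl4-fib libraries, and portal fibroblast and mesothelial markers lie lower.

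Of 13651 genes tested, 2209 (16.2%) were called higher in CCl4-fib and 1592 (11.7%) were called lower, at a change of at least 2-fold (1 on the log2 scale) and a Benjamini-Hochberg adjusted p under 0.05 in limma's moderated test. All 3 CCl4-fib libraries lay above all 3 HSC libraries in 27.8% of tested genes and below them in 20.9%. Among the genes called, 2182 of 2209 and 1572 of 1592 were separated in this way. The median log2 fold change of all tested genes was 0.18 as deposited and 0.07 with trimmed-mean (TMM) scaling, and 0.00 in edgeR, so the sign of a change as small as these shifts with the scaling. Genes of which no library of a group held more than 3 reads were taken as at the floor in that group, which held for HSCs in 463 of the genes called higher and for CCl4-fib in 209 of the genes called lower. For such genes a lower bound of the fold is given. The counts fell to 1377 and 1119 without CCl4-fib replicate 1, and to 1335 and 1084 without CCl4-fib replicate 2. HSC replicate 2 and CCl4-fib replicate 1 share the first part of their library names, as do HSC replicate 3 and CCl4-fib replicate 2, and what it marks is not given in the sources used here. Within both of these pairs the difference was positive in 2208 of the 2209 genes called higher and negative in 1588 of the 1592 called lower. The same libraries made the calls, so these signs follow largely from the selection. They cannot show whether the shared part of the names matters.

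**Figure D3:**
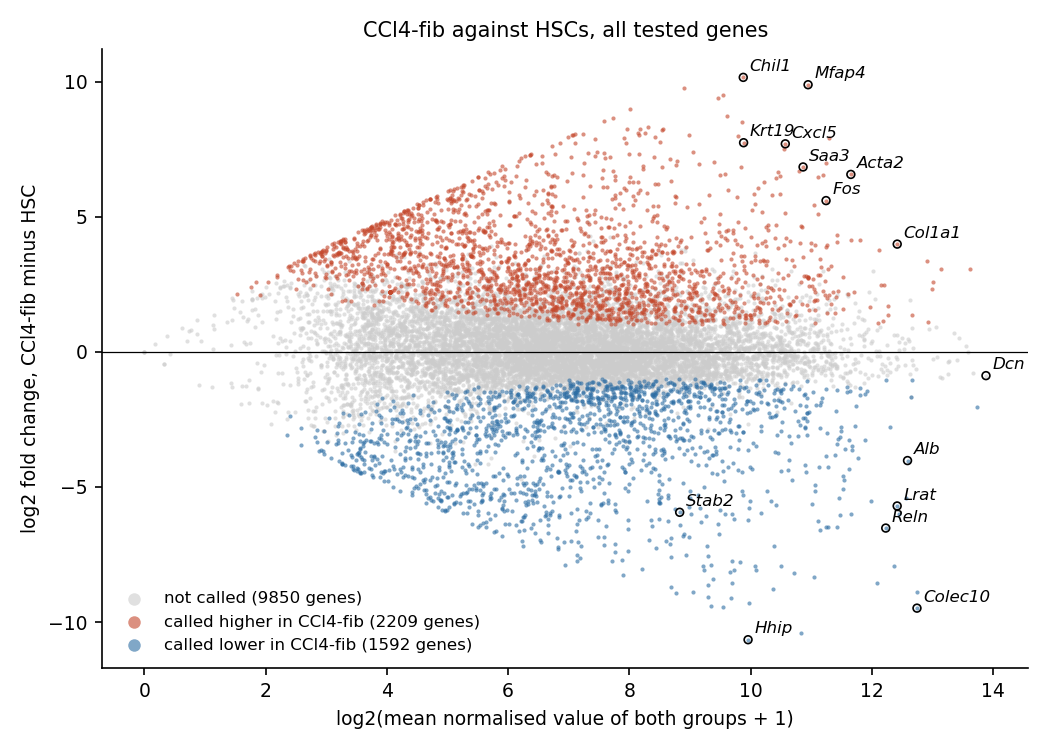
Each point is a tested gene, with its mean level over both groups on the horizontal axis (log2 of the normalised value + 1) and its log2 fold change in CCl4-fib over HSCs on the vertical axis. The 2209 genes called higher are red and the 1592 called lower are blue, the straight outer edges are genes at or near 0 in a group, and named genes are circled.

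The 10 genes with the largest increase were Mfap4, Cilp, Chil1, Calca, Lgals7, Prkg2, Ptn, Aspn, Mfap2 and Col6a5. Mfap4, which encodes a glycoprotein of elastic microfibrils, was at 1.17, 8.74 and 2.39 in HSCs and at 3838, 3968 and 4041 in CCl4-fib (log2 fold change 9.89, SE 0.94, adjusted p = 6.32e-05). Cilp, which encodes a matrix protein of cartilage, had no read in any HSC library and values of 1449, 917 and 488 in CCl4-fib, at least 249-fold higher (adjusted p = 5.48e-06). Chil1, a secreted chitinase-like glycoprotein, was at 0, 2.91 and 0 against 2641, 1638 and 1366, at least 492-fold higher. In all 3 genes the groups lay far apart, and the HSC libraries held next to no reads. Calca, the gene of calcitonin and of the neuropeptide CGRP, was at 0, 1.46 and 1.20 in HSCs and 575, 1545 and 2382 in CCl4-fib, at least 393-fold higher (adjusted p = 1.18e-05). Lgals7, a galectin of stratified epithelia, had no read in HSCs and values of 332, 458 and 350.1 in CCl4-fib, and Prkg2, a cGMP-dependent protein kinase, had none in HSCs and 413, 644 and 488 in CCl4-fib. Ptn, which encodes the heparin-binding growth factor pleiotrophin, likewise had none in HSCs and 351, 342 and 569 in CCl4-fib. Aspn, a small leucine-rich proteoglycan of the matrix, was at 2.34, 0 and 10.8 against 2405, 1124 and 1165, and it overlaps the gene Cenpp on the genome, so that reads of the pair cannot be told apart without strand. Mfap2 and Col6a5 are described with their families.

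Among the 10 largest decreases, 7 were major urinary protein genes (Mup1, Mup8, Mup12, Mup14, Mup15, Mup17 and Mup19), which hepatocytes secrete. Their sequences are nearly identical, so how reads were shared among the copies is uncertain. Mup1 was at 727, 1947 and 1780.2 in HSCs and 1.59, 0 and 1.91 in CCl4-fib, and Cyp2c37, a cytochrome P450 of hepatocytes, was at 348, 518 and 2313 against 0, 0 and 2.86. These go with the hepatocyte markers given above. The other two were Hhip and Colec10. Hhip, which encodes a membrane protein that binds and restrains Hedgehog ligands, was at 1851, 2276 and 1840.0 in HSCs and at 0, 0.850 and 0 in CCl4-fib, at least 765-fold lower (adjusted p = 7.85e-05). Colec10, a collectin of the innate immune system that HSCs are known to make, was at 12536, 21263 and 7361 against 7.94, 46.8 and 11.4 (log2 fold change -9.49, SE 0.89, adjusted p = 6.07e-05).

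Most genes that mark quiescent HSCs fell, and some did not pass the test. Of 24 tested markers, 15 were called lower and 0 higher, with a median log2 fold change of -3.16. Lrat, which esterifies retinol for storage, was at 10234, 14894 and 7070.5 in HSCs and 225, 348 and 95.4 in CCl4-fib (log2 fold change -5.70, SE 0.53, adjusted p = 6.02e-05). Reln, the secreted glycoprotein reelin, was at 9782, 7669.6 and 11068 against 75.4, 166 and 83 (log2 fold change -6.52, SE 0.40, adjusted p = 8.15e-06). Lhx2, a LIM-homeobox transcription factor that holds HSCs in the quiescent state, was at 516, 1239 and 393 against 23.8, 14.5 and 8.59 (log2 fold change -5.36, SE 0.63, adjusted p = 0.000194). Their means were 48.2, 88 and 45.8 times lower in CCl4-fib, and the groups lay far apart in each. Vipr1, a receptor for vasoactive intestinal peptide, went from 3887, 1523 and 3222 to 25.4, 25.5 and 0.950, and Rspo3, a secreted amplifier of Wnt signalling, from 2085, 4156 and 1866 to 67.5, 56.1 and 31.5. Bmp10, a bone morphogenetic protein that acts on the sinusoidal endothelium, went from 185, 62.6 and 208 to 0, 6.80 and 4.77. The 3 fell with adjusted p of 0.000132, 6.03e-05 and 0.00177. Other defining genes were not called: the transcription factors Hand2 (373, 625 and 342 in HSCs, 268, 181 and 149.8 in CCl4-fib, adjusted p = 0.0776) and Tcf21 (312, 328 and 277 against 284, 294 and 103, adjusted p = 0.367), the intermediate filament desmin (Des, 168, 32 and 302 against 365, 294 and 343) and the globin Cygb (613, 250.5 and 1319 against 1313, 766 and 585). Hand2 was separated between the groups and was called lower with DESeq2 and after the GC correction. For Tcf21, Des and Cygb the groups overlapped, and HSC replicate 2 had the lowest value of all 6 libraries in Des and Cygb. Rgs5, a regulator of G protein signalling in pericytes, was at 19974, 27511 and 14708 in HSCs, against 13715, 2296 and 3792 in CCl4-fib and was called lower (adjusted p = 0.0287). CCl4-fib replicate 1 lay close to HSC replicate 3, and the call was lost without HSC replicate 1 or 2 or CCl4-fib replicate 2 or 3, and with edgeR's count test.

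The retinoid genes split. Of 28 tested members of retinoid storage and metabolism, 10 were called lower and 6 higher (median log2 fold change -0.49). These are 35.7% lower and 21.4% higher, beside 11.7% and 16.2% of all tested genes. Those lower included Rbp4 and Ttr, which are also on the list of hepatocyte markers, and the part of hepatocyte RNA in this count was not tested. Besides Lrat, the genes that fell included Bco1, which cleaves beta-carotene into retinal (1912, 1255 and 1346 in HSCs, 13.5, 23.8 and 33.4 in CCl4-fib, adjusted p = 0.000187), Cyp26b1, which degrades retinoic acid (448, 671 and 337 against 21.4, 23.8 and 31.5, adjusted p = 0.00012), and the retinoic acid receptor Rarb (325, 399 and 238 against 77.8, 73.1 and 143, adjusted p = 0.00862). Rdh16, a retinol dehydrogenase of hepatocytes, had 16.4, 59.7 and 191 in HSCs and no read in CCl4-fib. In the other direction, Aldh1a2, which makes retinoic acid and also marks mesothelial cells, was at 11.7, 1.46 and 9.56 in HSCs and 379, 426 and 605 in CCl4-fib (log2 fold change 6.06, SE 0.60, adjusted p = 7.69e-05). Stra6, the membrane receptor for retinol-binding protein, was at 0, 1.46 and 0 against 49.2, 40.8 and 44.8, at least 11.8-fold higher.

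**Figure D4:**
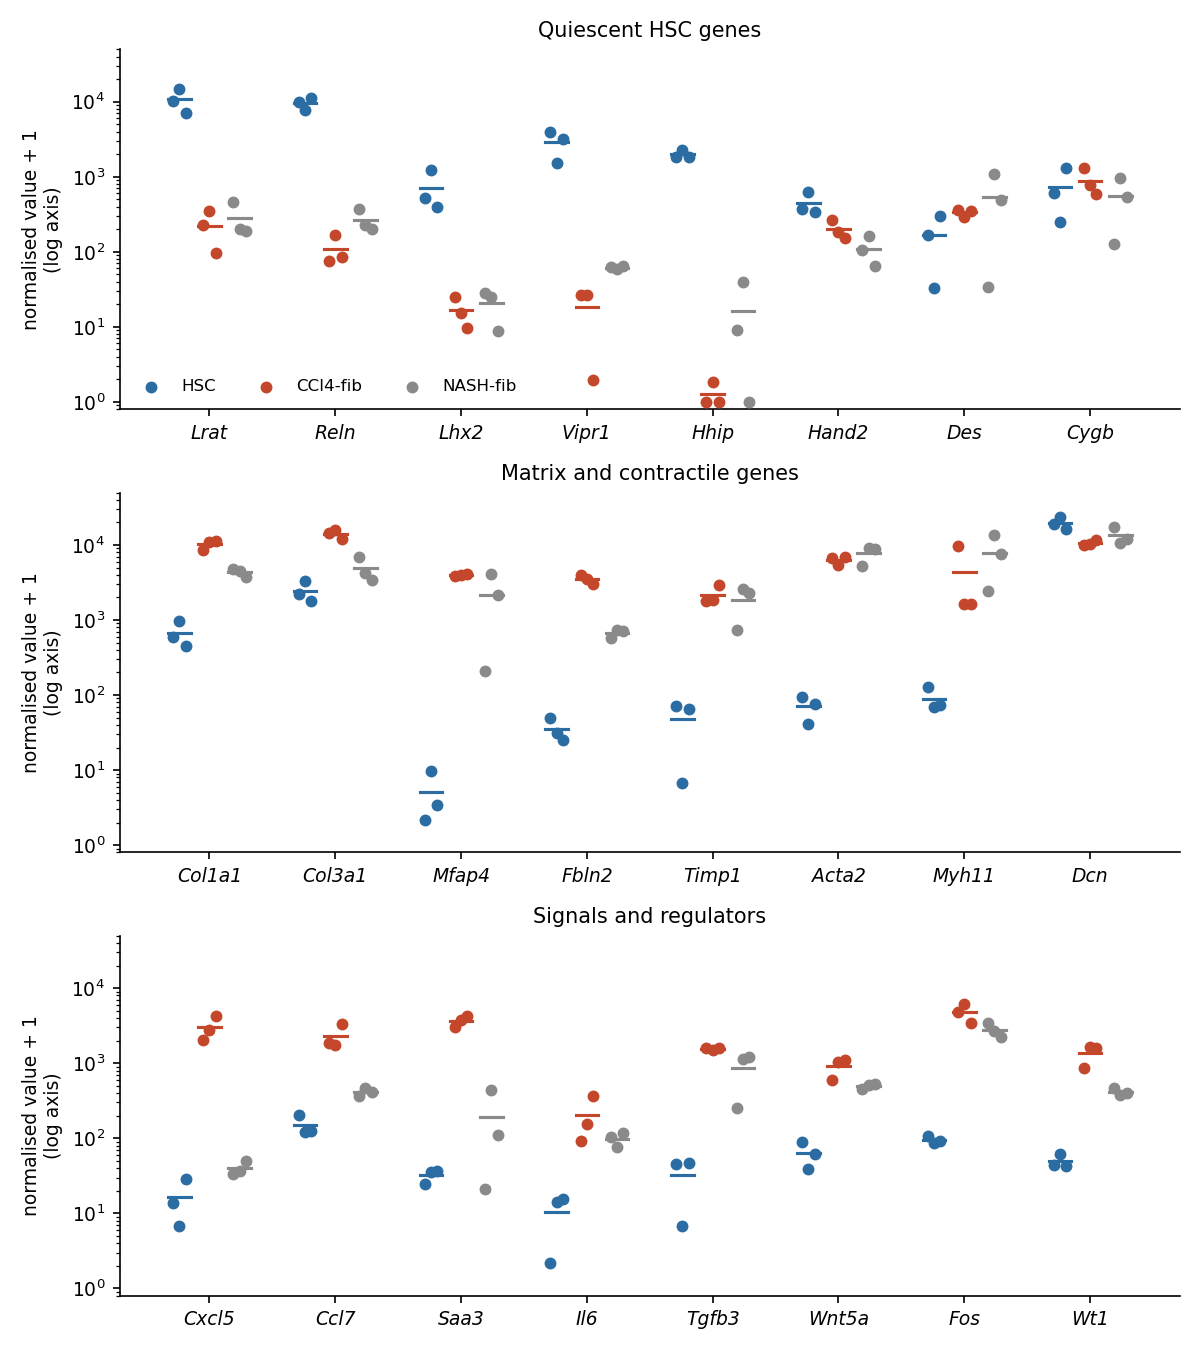
Normalised value + 1 (log axis) of 24 genes in the 3 HSC, 3 CCl4-fib and 3 NASH-fib libraries, with 1 point per library and a bar at the group mean. Lrat, Reln, Lhx2, Vipr1 and Hhip lie lower in all CCl4-fib libraries, while Des and Cygb overlap between HSCs and CCl4-fib, and the matrix, chemokine and signalling genes other than Dcn lie higher in all CCl4-fib libraries.

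Fibrillar collagens, the rods of scar tissue, rose in most members. Of 9 tested, 7 were called higher and 0 lower, with a median log2 fold change of 3.07 (3.04 with genes at the floor set to their bound and 2.10 after the GC correction), and this list includes Col1a2, which the sort used. CCl4-fib were gated on GFP driven by a collagen promoter, and HSCs were not. The sort thus bears on the direction of this list, and the count is a description. Col1a1, the other chain of type I collagen, was at 599.7, 968 and 452 in HSCs and 8485, 11002 and 11375 in CCl4-fib (log2 fold change 3.99, SE 0.35, adjusted p = 4.03e-05), a 15.3-fold difference of means. Col3a1, the chain of type III collagen, was at 2192, 3311 and 1766 against 14332, 15969.9 and 12180.4 (log2 fold change 2.59, SE 0.37, adjusted p = 0.000676), and Col5a2, which regulates fibril diameter, at 178, 285 and 176 against 2798, 3632 and 3761 (log2 fold change 4.02, SE 0.33, adjusted p = 3.3e-05). The 3 genes were well detected in all HSC libraries, and no HSC library reached a CCl4-fib library. Reads were counted at most 3 times per position, and Col3a1 reached 3.41 reads per exonic base in its deepest library against 2.20 for Col1a1, and the part of this limit in their folds was not tested. Of 11 other interstitial collagens tested, 10 were called higher and 1 lower. Col12a1, a collagen on fibril surfaces, was at 1.17, 1.46 and 1.20 in HSCs and 488, 466 and 510.4 in CCl4-fib, at least 128-fold higher, and Col6a5, a chain of microfibrillar type VI collagen, was at 4.68, 1.46 and 8.37 against 1726, 1766 and 2057 (log2 fold change 8.51, SE 0.47, adjusted p = 6.23e-06). Col8a1, a short-chain collagen of vessel walls, rose from 60.8, 16 and 7.17 to 379, 444 and 426 (adjusted p = 0.00229). Col14a1, which also lies on fibril surfaces, was the exception. It was at 6468, 4036 and 6474 in HSCs and 2898, 2154 and 1341 in CCl4-fib (adjusted p = 0.0235), a call that was lost without HSC replicate 1 or 3 or CCl4-fib replicate 2 or 3.

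Basement membrane genes moved unevenly. Of 24 tested, 11 were called higher and 1 lower (45.8% and 4.17%, beside 16.2% and 11.7% of all tested genes). The abundant Col4a1, which shares its promoter with Col4a2, overlapped between the groups (2087, 818 and 1553 in HSCs and 1741, 2255 and 2612 in CCl4-fib, adjusted p = 0.311). The minor type IV chains Col4a5 and Col4a6, which lie next to each other on the X chromosome, went from 11.7, 10.2 and 5.98 to 619, 914 and 906 and from 11.7, 13.1 and 3.59 to 471, 592 and 593 (adjusted p = 1.15e-05 and 3.28e-05). Lamc3, a laminin gamma chain, was at 0, 1.46 and 3.59 in HSCs and 327, 519 and 295 in CCl4-fib, at least 99.5-fold higher. Lama1, a laminin alpha chain, was the member that fell, from 673, 229 and 768 to 11.1, 18.7 and 54.4 (log2 fold change -4.38, SE 0.75, adjusted p = 0.0018). Lamb1, a laminin beta chain, was separated between the groups (1547, 1771 and 1791 against 905, 1018 and 882) but its log2 fold change of -0.86 was too small for a call.

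Elastic fibre and microfibril genes rose in 13 members, among them elastin and the fibrillins. Of 25 tested, 1 was called lower, and the median log2 fold change was 2.37 (1.58 without HSC replicate 2). Fbln2, a fibulin that links elastic fibres to basement membranes, was at 47.9, 30.6 and 23.9 in HSCs and 4019, 3521 and 2999 in CCl4-fib (log2 fold change 6.69, SE 0.34, adjusted p = 5.48e-06). Eln, elastin itself, was at 78.3, 20.4 and 35.9 against 1273, 1203 and 882 (log2 fold change 4.80, SE 0.49, adjusted p = 9.14e-05), and Fbn1, the main microfibril protein fibrillin 1, at 429, 309 and 434 against 2607, 2375 and 2773 (log2 fold change 2.74, SE 0.29, adjusted p = 0.000108). Fbn2, a second fibrillin best known from development, had no read in HSCs and 233, 327 and 239 in CCl4-fib, at least 69.7-fold higher. Mfap2 was at 0, 0 and 7.17 against 1622, 1642 and 963, Mfap5 at 23.4, 7.28 and 20.3 against 3335, 2536 and 3039.6, and Ltbp2, a microfibril-bound protein of the latent TGF-beta-binding family, at 5.84, 1.46 and 2.39 against 909, 1224 and 882. All 3 were called higher, and every HSC library of each was near 0 against the CCl4-fib libraries. Of the enzymes that cross-link collagen and elastin, Lox went from 0, 42.2 and 4.78 to 600.0, 913 and 1089 (adjusted p = 0.000793) and Loxl1 from 49.1, 74.3 and 40.6 to 981, 1482 and 1025 (adjusted p = 3.81e-05), whereas Loxl4 went from 173, 53.9 and 95.6 to 19.1, 5.95 and 30.5 and was called lower (adjusted p = 0.0148), which was lost without HSC replicate 1 or CCl4-fib replicate 2.

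The most abundant proteoglycans and matricellular proteins were already high in HSCs. Dcn (decorin) was at 18795, 23916 and 16290.5 in HSCs and 9919, 10219 and 11635 in CCl4-fib (adjusted p = 0.0719), and Lum (lumican) at 10627, 15731 and 9994 against 8806, 9139.5 and 10838 (adjusted p = 0.522). Neither was called, and the lumican values overlapped. Bgn (biglycan) was at 15885, 3869 and 17315 against 10465, 11660.4 and 13387, with HSC replicate 2 under every CCl4-fib library and both other HSC libraries above them all. Among 11 tested small leucine-rich proteoglycans 4 were called higher (36.4%, beside 16.2% of all tested genes). They included Fmod (fibromodulin, 80.7, 4.37 and 47.8 against 730.2, 621 and 792, adjusted p = 0.00297). Of 24 tested matricellular proteins and targets of the coactivator YAP, 13 were called higher (54.2%) and 1 lower (4.17%). Sparc (9798, 6767 and 11162 against 11407, 12656 and 14869.9), Postn (periostin, 5022, 5577 and 2971 against 1435, 2159 and 2039.8) and Ccn2, the connective tissue growth factor that the file lists as Ctgf (189, 194 and 163 against 231, 192 and 438), were not called, at adjusted p of 0.256, 0.0511 and 0.34, although periostin lay lower in every CCl4-fib library and was called lower with DESeq2. Thbs1, which activates latent TGF-beta, rose from 149.6, 69.9 and 77.7 to 1195, 2165 and 3849 (log2 fold change 4.51, SE 0.47, adjusted p = 9.49e-05). Tnc, the injury-induced glycoprotein tenascin C, rose from 154, 114 and 159 to 723, 1563 and 2857 (log2 fold change 3.38, SE 0.47, adjusted p = 0.000537), and Spp1 (osteopontin), a secreted phosphoprotein, from 32.7, 156 and 159 to 938, 1527 and 2421 (adjusted p = 0.00107). Replicate 3 was the highest CCl4-fib library and replicate 1 the lowest for all 3 genes. Cthrc1, a marker of matrix-producing fibroblasts, had no read in HSCs and 119, 216 and 93.5 in CCl4-fib, at least 37.4-fold higher. Tgfbi, a matrix adhesion protein, was the member that fell, from 6874, 4514 and 6702 to 491, 628 and 485 (log2 fold change -3.48, SE 0.34, adjusted p = 6.78e-05).

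Some matrix metalloproteinases and most of their tested inhibitors rose. Of 15 tested matrix metalloproteinases, 7 were called higher (46.7%, beside 16.2% of all tested genes), 0 lower and 8 were not called. Of 10 tested protease inhibitors 8 were called higher (80%) and 1 lower (10%, beside 11.7% of all tested genes). The genes Mmp3, Mmp10 and Serpinb2, which were at or near 0 in HSCs, each carry a match to the AP-1 motif (TGANTCA, searched on both strands) in the 250 bases before their start, as read from RefSeq for GRCm38.p6, the build also called mm10. They are shown because they hold it, and AP-1 is the dimer of the Fos and Jun proteins, whose genes are described further on. In the lines that follow, on the plus strand and 5′ to 3′, capitals mark the match. Mmp3 lies at chr9:7445572-7445821, Mmp10 at chr9:7502092-7502341 and Serpinb2 at chr1:107511260-107511509.
Mmp3: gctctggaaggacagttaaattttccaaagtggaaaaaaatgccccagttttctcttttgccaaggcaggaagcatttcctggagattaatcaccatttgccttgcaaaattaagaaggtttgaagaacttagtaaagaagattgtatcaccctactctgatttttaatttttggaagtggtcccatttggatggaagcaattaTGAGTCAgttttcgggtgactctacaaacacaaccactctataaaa
Mmp10: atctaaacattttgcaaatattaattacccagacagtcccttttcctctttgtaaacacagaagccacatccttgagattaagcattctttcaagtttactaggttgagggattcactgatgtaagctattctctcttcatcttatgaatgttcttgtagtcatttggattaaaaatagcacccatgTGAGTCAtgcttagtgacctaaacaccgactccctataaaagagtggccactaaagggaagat
Serpinb2: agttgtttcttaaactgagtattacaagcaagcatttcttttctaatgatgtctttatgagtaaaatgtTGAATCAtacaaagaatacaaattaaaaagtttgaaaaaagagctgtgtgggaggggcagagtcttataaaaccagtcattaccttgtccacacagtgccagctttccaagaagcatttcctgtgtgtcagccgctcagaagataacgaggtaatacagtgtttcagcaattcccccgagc
The match began 46 bases before the start in Mmp3, 63 bases in Mmp10 and 181 bases in Serpinb2. Such a match was held by 6.42% of the 17323 genes of the file with a promoter sequence, by 4.68% of those tested, by 6.74% of those called higher and by 5.72% of those called lower. Of the 4 metalloproteinases called higher that have a promoter sequence, 2 held it (Mmp3 and Mmp10). A match is a run of letters and not a measured binding site.

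Mmp3 (stromelysin 1) was at 0, 10.2 and 0 in HSCs and 1218, 603 and 395 in CCl4-fib (log2 fold change 8.21, SE 0.84, adjusted p = 9.43e-05), and Mmp10 (stromelysin 2) had no read in HSCs and 70.6, 85.9 and 188 in CCl4-fib, at least 30.1-fold higher (adjusted p = 3.81e-05). Mmp2, a gelatinase, rose from 371, 94.7 and 218 to 1819, 1871 and 2714 (adjusted p = 0.000837), and Mmp14, the membrane-bound protease that activates it, from 229, 266 and 239 to 776, 1493 and 1761 (adjusted p = 0.00127). The rodent interstitial collagenase Mmp13, which cleaves fibrillar collagen, was low in both groups, at 11.7, 40.8 and 0 in HSCs and 2.38, 0 and 3.82 in CCl4-fib (adjusted p = 0.32), and was called lower with DESeq2 and without HSC replicate 3. On the side of the inhibitors, Timp1, the tissue inhibitor of metalloproteinases that marks activated HSCs, was at 71.3, 5.82 and 63.4 in HSCs and 1770.0, 1872 and 2911 in CCl4-fib (log2 fold change 6.07, SE 0.83, adjusted p = 0.00048). Timp1 lies within the gene Syn1 and its reads were counted without strand. Serpinb2 (plasminogen activator inhibitor 2) rose from 0, 0 and 12 to 466, 848 and 927 (adjusted p = 0.00017). Serpinf1, the antiangiogenic protein PEDF, rose from 30.4, 21.8 and 123 to 2429.6, 2625 and 1236 (adjusted p = 0.00063). Reck, a membrane-anchored inhibitor of metalloproteinases, fell from 509.7, 582 and 501 to 140.5, 98.7 and 92.5 (log2 fold change -2.28, SE 0.36, adjusted p = 0.00109).

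Contractile genes rose, with a marked spread among the CCl4-fib libraries. Of 24 tested contractile and smooth muscle genes, 16 were called higher and 1 lower (median log2 fold change 3.85, which was 2.96 without HSC replicate 2, the lowest HSC library in 14 of the 24, and 3.23 after the GC correction), and 13 to 16 were called higher when any of the 6 libraries was left out. Acta2, the alpha-smooth muscle actin that defines myofibroblasts, was at 93.5, 40.8 and 74.1 in HSCs and 6692, 5464 and 6985 in CCl4-fib (log2 fold change 6.57, SE 0.38, adjusted p = 6.98e-06), a 91.8-fold difference of means. Tagln, the actin-binding protein SM22, was at 572, 56.8 and 503 against 5219, 4434 and 5669 (log2 fold change 4.31, SE 0.89, adjusted p = 0.00505), and Tpm1, a tropomyosin, at 485, 102 and 318 against 3945, 4087 and 3860.1 (log2 fold change 3.98, SE 0.69, adjusted p = 0.00198). For these, the 3 CCl4-fib libraries lay close together. Markers of differentiated smooth muscle were less even. Myh11, the smooth muscle myosin heavy chain, was at 125, 68.4 and 72.9 in HSCs and 9805, 1647 and 1610.5 in CCl4-fib, Cnn1 (calponin 1) at 2.34, 0 and 0 against 1217, 346 and 142, and Casq2, a calcium store protein, had no read in HSCs and 772, 155 and 106 in CCl4-fib. All 3 were called higher (adjusted p = 0.000845, 0.000485 and 4.47e-05). CCl4-fib replicate 1 stood well above the other two in these genes and was the highest CCl4-fib library in 15 of the 24 members, but the other two also lay above every HSC library. Cnn3, the calponin of non-muscle cells, was called lower (2414, 1210.1 and 1595 against 532, 623 and 756, adjusted p = 0.0172), which was lost without HSC replicate 1 or CCl4-fib replicate 1 or 2.

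Growth factor genes of the TGF-beta family, which drive matrix synthesis, changed by member. Of 20 tested genes of TGF-beta signalling, 5 were called higher and 5 lower (25% each, beside 16.2% and 11.7% of all tested genes). The counts were 3 in either direction without CCl4-fib replicate 2 or 3. The ligand Tgfb2 rose from 58.5, 30.6 and 34.7 to 545, 696 and 702 (log2 fold change 3.99, SE 0.38, adjusted p = 6.27e-05) and Tgfb3 from 44.4, 5.82 and 45.4 to 1572, 1484 and 1594 (log2 fold change 5.99, SE 0.78, adjusted p = 0.000357). Tgfb1 was under the filter on low counts and not tested (4.68, 11.7 and 7.17 in HSCs, 0, 2.55 and 3.82 in CCl4-fib). The inhibitory Smad7 fell from 270.0, 364 and 236 to 70.6, 103 and 84.9 (adjusted p = 0.00697), as did the coreceptor Eng (endoglin, 430.2, 585 and 465 to 99.2, 109.7 and 43.9, adjusted p = 0.00117), which endothelial cells also express and which overlaps the gene Fpgs. Bambi, a decoy receptor, was at 359, 320.4 and 335 against 121, 145 and 141, and its call (adjusted p = 0.0276) was lost when any of the 6 libraries was left out. In all 3 genes, no CCl4-fib library reached an HSC library. For platelet-derived growth factor, the mitogen of HSCs, neither receptor was called (Pdgfra 2334, 2432 and 1652 against 2227, 2619 and 2076, adjusted p = 0.782, and Pdgfrb 898, 396 and 962 against 1700.1, 854 and 959.8, adjusted p = 0.431). Of the 7 tested genes 3 (42.9%) were called higher (the ligands Pdgfa and Pdgfc and the receptor-like Pdgfrl), but 1 without CCl4-fib replicate 1 or 3 and 0 without replicate 2. Pdgfc, the clearest, went from 19.9, 10.2 and 39.5 to 81, 213 and 112 (adjusted p = 0.0123).

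Among genes of the bone morphogenetic proteins (BMPs), 6 ligands fell and 1 rose (Bmp7), while the extracellular antagonists that were called all rose. Of 32 tested genes of BMP and activin signalling, 10 were called higher and 8 lower (31.25% and 25%, beside 16.2% and 11.7% of all tested genes). The 8 called lower became 6 without HSC replicate 1 or 2 or any CCl4-fib library. The ligands that fell were Bmp2, Bmp5, Bmp6, Bmp10, Gdf2 (BMP9) and Gdf10, and the antagonists that rose included Fst, Fstl3, Chrd and Nbl1. Among those not called were the ligand genes Bmp3, Bmp4, Inhba and Inhbb and the antagonist Chrdl1. Bmp5 was at 4359, 3406 and 4706 in HSCs and 131, 146 and 82 in CCl4-fib (log2 fold change -5.13, SE 0.34, adjusted p = 1.27e-05), Gdf2, which acts on sinusoidal endothelium, at 3886, 2231 and 4977 against 178, 286 and 79.2 (log2 fold change -4.45, SE 0.50, adjusted p = 0.000146), and Bmp2, a regulator of hepcidin that endothelial cells of the sinusoid also make, at 1660.0, 2966 and 1340.2 against 30.2, 41.7 and 50.6 (log2 fold change -5.52, SE 0.51, adjusted p = 5.68e-05). In all 3 the lowest HSC library lay far above the highest CCl4-fib library. Bmp1, which is a procollagen proteinase and no BMP ligand, rose from 60.8, 75.7 and 117 to 792, 1229.8 and 1451 (adjusted p = 0.000256). The extracellular antagonists Nbl1 (26.9, 2.91 and 46.6 against 507, 513 and 439.8) and Fst (follistatin, 12.9, 1.46 and 1.20 against 106, 59.5 and 56.3) rose, with adjusted p of 0.00415 and 0.00189, as did the BMP-binding regulator Bmper (31.6, 20.4 and 4.78 against 187, 292 and 267, adjusted p = 0.00116). The target Id1 overlapped between groups (76, 106 and 39.5 against 79.4, 127 and 39.1, adjusted p = 0.904).

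Wnt and Hedgehog genes showed ligands and modulators moving in both directions. Of 25 tested Wnt genes 12 were called higher and 6 lower (48% and 24%, beside 16.2% and 11.7% of all tested genes). Wnt5a, a ligand of the noncanonical branch, rose from 88.8, 37.9 and 61 to 594, 1042 and 1111 (log2 fold change 3.88, SE 0.40, adjusted p = 9.46e-05). Of the secreted Frizzled-related proteins, which bind Wnt ligands outside the cell, Frzb was called lower, Sfrp5 was not tested and 3 rose: Sfrp1 from 10.5, 2.91 and 13.2 to 914, 865 and 1588, Sfrp2 from 37.4, 52.4 and 14.3 to 1356, 1917 and 1894 and Sfrp4 from 0 in all HSC libraries to 160.3, 212 and 46.8 (adjusted p = 3.81e-05, 4.87e-05 and 9.91e-05). Frzb, named here after its values were seen, went from 396, 628 and 219 to 85.7, 143 and 81.1 (adjusted p = 0.027), a call lost without HSC replicate 1 or 2 or CCl4-fib replicate 1 or 3. The ligand Wnt2, also made by sinusoidal endothelium, fell from 122, 194 and 212 to 62.7, 44.2 and 24.8 (adjusted p = 0.0113), and the ligand Wnt9b from 24.6, 13.1 and 21.5 to 0, at least 7.59-fold lower. Nkd1, a feedback inhibitor and target of canonical Wnt signalling, fell from 486, 248 and 356 to 111, 50.2 and 63 (adjusted p = 0.00349). Of 12 tested Hedgehog genes 5 were called higher (41.7%) and 3 lower (25%). Those lower were Hhip, described above, the ligand Dhh (11.7, 35 and 15.5 in HSCs, 0 in every CCl4-fib library) and the receptor Ptch1 (28.1, 17.5 and 43 against 3.97, 2.55 and 6.68, adjusted p = 0.00867), and Hhip and Ptch1 are themselves targets of the pathway. Those higher included the coreceptors Boc (0, 10.2 and 15.5 against 210.3, 140.3 and 119) and Cdon (76, 78.6 and 49 against 378, 420.1 and 292) and the transcription factor Gli2 (5.84, 0 and 0 against 19.8, 30.6 and 26.7), at adjusted p of 0.00365, 0.000539 and 0.0047. The target Gli1 was low and not called (2.34, 1.46 and 4.78 against 26.2, 14.5 and 0, adjusted p = 0.501), but it was called higher without CCl4-fib replicate 3, where it had no read. The median of the Hedgehog list (0.84) was 0.34 without CCl4-fib replicate 2 and 1.47 without replicate 3.

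Chemokines of the CXC family, which attract leukocytes, changed in both directions. The 250 bases before the starts of Cxcl1 and Cxcl2, neighbours on chromosome 5, and of Il6 each hold a match to the NF-kB motif, and are shown because the 3 genes rose and hold it. Cxcl1 lies at chr5:90890995-90891244, Cxcl2 at chr5:90903649-90903898 and Il6 at chr5:30012864-30013113, with capitals again marking the match, build and strand as before.
Cxcl1: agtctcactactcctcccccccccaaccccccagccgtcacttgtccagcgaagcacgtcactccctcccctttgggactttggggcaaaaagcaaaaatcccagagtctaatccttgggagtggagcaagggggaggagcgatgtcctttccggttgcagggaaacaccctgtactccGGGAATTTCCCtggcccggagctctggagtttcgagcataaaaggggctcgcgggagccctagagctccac
Cxcl2: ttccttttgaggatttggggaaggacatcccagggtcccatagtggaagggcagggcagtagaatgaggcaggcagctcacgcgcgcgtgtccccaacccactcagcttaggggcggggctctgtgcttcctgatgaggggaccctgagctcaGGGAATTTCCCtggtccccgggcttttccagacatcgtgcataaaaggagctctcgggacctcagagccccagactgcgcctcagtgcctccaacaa
Il6: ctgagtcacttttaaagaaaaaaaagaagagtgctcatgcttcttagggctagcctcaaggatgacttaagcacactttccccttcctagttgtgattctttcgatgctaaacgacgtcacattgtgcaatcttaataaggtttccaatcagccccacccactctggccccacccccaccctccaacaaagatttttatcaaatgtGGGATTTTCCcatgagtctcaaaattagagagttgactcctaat
The motif, searched on both strands, was held by 4.14% of the 17323 genes with a promoter sequence, by 4.54% of those tested, by 4.33% of those called higher and by 4.35% of those called lower. Of the members called higher that have a promoter sequence, 2 of 4 CXC chemokines and 1 of 6 genes of the IL-6 family and acute phase held it. The Il6 sequence also holds the AP-1 motif.

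Of 12 tested CXC (and CX3C) chemokines, 5 were called higher (41.7%) and 4 lower (33.3%), beside 16.2% and 11.7% of all tested genes. The attractants of neutrophils Cxcl1, Cxcl2 and Cxcl5, ligands of the receptor CXCR2, rose. Cxcl5 was at 12.9, 5.82 and 27.5 in HSCs and 2068, 2782 and 4243 in CCl4-fib (log2 fold change 7.70, SE 0.53, adjusted p = 1.5e-05), Cxcl1 at 14, 153 and 23.9 against 1234, 1818 and 1071 (log2 fold change 5.12, SE 0.72, adjusted p = 0.000578), and Cxcl2 at 8.18, 2.91 and 3.59 against 82.5, 249 and 462 (log2 fold change 5.28, SE 0.73, adjusted p = 0.000532). The lowest CCl4-fib library of each lay above the highest HSC library. Cxcl12, which retains CXCR4-bearing cells and is a known product of HSCs, fell from 5336, 6040.2 and 5051 to 1126, 1293 and 1791 (log2 fold change -1.99, SE 0.34, adjusted p = 0.0019), Cxcl9, a T cell attractant induced by interferon gamma, from 258, 248 and 145 to 38.1, 16.2 and 9.54 (adjusted p = 0.00303), and Cxcl14 from 247, 226 and 240.3 to 31.8, 27.2 and 82 (adjusted p = 0.00264). Ppbp, the platelet basic protein and another attractant of neutrophils, was also called lower (66.6, 26.2 and 23.9 against 0, 0 and 5.72, adjusted p = 0.012), which was lost without HSC replicate 1 or CCl4-fib replicate 2. Cxcl10, from the same interferon group as Cxcl9, overlapped between the groups (323, 115 and 288 against 127, 297 and 492, adjusted p = 0.765). Of 13 tested CC chemokines 3 were called higher (23.1%) and 1 lower (7.69%), beside 16.2% and 11.7% of all genes, and their median log2 fold change was 0.04. The monocyte attractants Ccl2 (932, 995 and 1043 in HSCs and 2495, 2633 and 3837 in CCl4-fib, adjusted p = 0.00597) and Ccl7 (201, 121 and 123 against 1872, 1742 and 3297, adjusted p = 5.69e-05) rose, as did the eosinophil attractant Ccl11 (67.8, 13.1 and 31.1 against 883, 418 and 109.7, adjusted p = 0.00628), whose CCl4-fib libraries were spread widely. Ccl6, a product of macrophages, was called lower (426, 303 and 909 against 30.9, 49.3 and 69.7, adjusted p = 0.00132), beside the lower macrophage markers.

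Il6 and some acute-phase genes rose, while receptors of the IL-6 family went both ways. Of 18 tested, 6 were called higher (33.3%) and 2 lower (11.1%), beside 16.2% and 11.7% of all genes. Il6, the cytokine that drives the acute-phase response, rose from 1.17, 13.1 and 14.3 to 89.7, 153 and 366 (log2 fold change 4.47, SE 0.78, adjusted p = 0.00196). The acute-phase genes Saa3 (serum amyloid A3, 23.4, 35 and 35.9 against 3053, 3797 and 4256, log2 fold change 6.85, SE 0.85, adjusted p = 0.000265) and Lcn2 (lipocalin 2, 1.17, 23.3 and 59.8 against 1095, 1380.4 and 1744, log2 fold change 6.55, SE 1.43, adjusted p = 0.00681) rose, as did Socs3, the feedback inhibitor of the pathway (51.4, 46.6 and 44.2 against 211, 340.2 and 207, adjusted p = 0.00367). Among the receptors, Osmr, for oncostatin M, rose (329.6, 523 and 255 against 869, 1058 and 1397, adjusted p = 0.00725), while Lifr, for leukemia inhibitory factor, fell (11918, 6971 and 7599 against 1685, 1105 and 1039.9, log2 fold change -2.78, SE 0.33, adjusted p = 0.000221). The shared subunit gp130 (Il6st) was at 2813, 1749 and 2531 against 1077, 1101 and 751 and was called lower (adjusted p = 0.0171), which was lost without HSC replicate 1 or CCl4-fib replicate 3. Of 25 tested genes of antigen presentation and the interferon response, 1 was called higher (0 without HSC replicate 2 or any CCl4-fib library) and 4 lower (16%, against 11.7% of all genes). Ifit3, an interferon-induced antiviral gene, fell from 3163, 2618 and 2079 to 208, 236 and 141 (log2 fold change -3.75, SE 0.47, adjusted p = 0.000281), and Rsad2 (viperin) from 167, 173 and 194 to 7.14, 24.7 and 8.59 (adjusted p = 0.00135). Not called were the class II genes Cd74 (1536, 219.9 and 7729 against 5591, 5556 and 4876) and H2-Aa (966, 415 and 2672 against 1231, 937 and 755), whose HSC libraries were spread widely around the CCl4-fib values.

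Immediate-early genes, which answer growth factors and stress within minutes, rose in most members. Of 22 tested, 17 were called higher and 0 lower, with a median log2 fold change of 2.92 (2.09 after the GC correction), and 14 to 16 were called higher when any of the 6 libraries was left out. Fos was at 108, 84.5 and 92.1 in HSCs and 4763, 6128 and 3392 in CCl4-fib (log2 fold change 5.60, SE 0.33, adjusted p = 7.41e-06). Its AP-1 partner Jun was at 134, 191 and 81.3 against 648, 595 and 696 (log2 fold change 2.33, SE 0.37, adjusted p = 0.00123), a call lost after the GC correction. The zinc finger factor Egr1 was at 140.3, 183 and 116 against 1322, 1815 and 2112 (log2 fold change 3.57, SE 0.33, adjusted p = 5.14e-05), the orphan nuclear receptor Nr4a1 at 15.2, 11.7 and 15.5 against 719.9, 791 and 448 (log2 fold change 5.40, SE 0.40, adjusted p = 1.93e-05), and the survival gene Ier3 at 50.3, 46.6 and 81.3 against 1137, 2095 and 861 (log2 fold change 4.44, SE 0.42, adjusted p = 6.35e-05). In these genes the HSC libraries lay close together and all CCl4-fib libraries lay well above them. CCl4-fib were sorted and HSCs were not, so treatment and handling cannot be told apart for these genes.

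Genes of the cell cycle were mostly not called. Of 40 tested, 6 were called higher (15.0%, against 16.2% of all genes) and 1 lower, and 2 were called higher without HSC replicate 2 or CCl4-fib replicate 2 or 3. Cdkn1a, an inhibitor of the cell cycle, was among the 6. The median log2 fold change of the list was 0.96, against 0.18 for all tested genes. In 15 of the 40, every CCl4-fib library lay above every HSC library, which held for 27.8% of all tested genes. The proliferation marker Mki67 was at 74.8, 62.6 and 52.6 in HSCs and 27.8, 109.7 and 117 in CCl4-fib (adjusted p = 0.867), and topoisomerase Top2a at 22.2, 81.5 and 67 against 90.5, 109.7 and 126 (adjusted p = 0.151). Birc5 (survivin), which acts in mitosis, rose from 8.18, 7.28 and 10.8 to 51.6, 109 and 84 (adjusted p = 0.00284), and Tyms, which makes thymidylate for DNA synthesis, from 18.7, 37.9 and 75.3 to 294, 350.4 and 527 (adjusted p = 0.0017). Cyclin D2 (Ccnd2) fell from 5350.5, 2803 and 2489 to 1399, 1055 and 736 (adjusted p = 0.00796). The senescence gene Cdkn2a had at most 1 read in any of the 6 libraries.

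Genes that fold and export collagen rose in part. Of 35 tested genes of the secretory pathway, 14 were called higher (40%, beside 16.2% of all tested genes) and 0 lower. The 14 became 7 without CCl4-fib replicate 2 and 8 without HSC replicate 1 or CCl4-fib replicate 1. Serpinh1, the collagen chaperone HSP47, rose from 1093, 749.9 and 774 to 3765, 5692 and 2340.3 (log2 fold change 2.10, SE 0.39, adjusted p = 0.00275), a call lost after the GC correction. Fkbp10, a collagen-folding prolyl isomerase, rose from 58.5, 18.9 and 61 to 795, 899.8 and 571 (log2 fold change 4.15, SE 0.53, adjusted p = 0.000333), and Plod2, which hydroxylates collagen lysines for cross-links, from 157, 282 and 148 to 506, 639.6 and 1023 (adjusted p = 0.0108). The general chaperone Hspa5 (BiP) was not called (2334, 4232 and 1536 against 3276, 7566 and 2281, adjusted p = 0.398). Cytosolic ribosomal proteins were near the background, with 12 of 76 called higher (15.8%), 0 lower, and with 1 library left out as few as 4 higher (without CCl4-fib replicate 1 or 2), 5 (HSC replicate 1) or 6 (CCl4-fib replicate 3). HSC replicate 2 was under 0.5 of both other HSC libraries in 35 of the 76, and processed pseudogenes can share their reads.

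The first enzymes of serine synthesis rose. Of 20 tested genes of serine and one-carbon metabolism, 7 were called higher and 2 lower (35% and 10%, beside 16.2% and 11.7% of all tested genes). Phgdh, the first enzyme of serine synthesis, had no read in any HSC library and values of 152, 148 and 157 in CCl4-fib, at least 39.9-fold higher (adjusted p = 6.27e-05). Psat1, the next enzyme, rose from 9.35, 4.37 and 8.37 to 189.7, 227 and 293 (log2 fold change 4.86, SE 0.51, adjusted p = 0.000104), and Psph, the last, was separated but not called (46.8, 56.8 and 68.2 against 148, 179 and 160.3, adjusted p = 0.0962). Serine is the donor of one-carbon units and the source of glycine, which makes up much of collagen. Asns, the asparagine synthetase, rose from 16.4, 1.46 and 15.5 to 365, 248 and 201 (adjusted p = 0.001), and Aldh1l2, a mitochondrial folate enzyme, from 0, 0 and 1.20 to 74.6, 27.2 and 129.8, at least 20.2-fold higher. The 2 members called lower, Shmt1 and Aldh1l1, are abundant in hepatocytes, and 0 were called lower without HSC replicate 2 or 3 or CCl4-fib replicate 1 or 2. Of 28 tested genes of glycolysis and the hypoxia response, 10 were called higher (35.7%) and 0 lower. The 10 became 5 without HSC replicate 1 or CCl4-fib replicate 2 or 3 and 6 without CCl4-fib replicate 1. Pfkl, a phosphofructokinase subunit, rose from 17.5, 10.2 and 39.5 to 371, 408 and 193 (adjusted p = 0.00354) and Car9, a carbonic anhydrase induced by hypoxia, from 7.01, 0 and 39.5 to 209, 242 and 149 (adjusted p = 0.00591). Vegfa, the vascular growth factor, was not called (8.18, 20.4 and 25.1 against 19.8, 66.3 and 63.9).

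Lipid genes showed no shared direction. Of 30 tested genes of cholesterol and fatty acid synthesis, 3 were called higher and 2 lower, shares under those of all genes, and 0 were called higher without HSC replicate 1 or CCl4-fib replicate 1 or 2 and 0 lower without HSC replicate 2 or any CCl4-fib library. Of 35 tested genes of fatty acid oxidation and targets of PPAR nuclear receptors, 6 were called higher and 7 lower, beside 16.2% and 11.7% of all genes, with 3 higher without HSC replicate 1 or CCl4-fib replicate 2 or 3. Those lower were led by Cyp4a10 (223, 35 and 1141 in HSCs and 0 in CCl4-fib), Slc27a2 (117, 475 and 466 against 0, 3.40 and 2.86) and Cyp4a14 (88.8, 58.2 and 308 against 0.790, 0 and 0), which hepatocytes express, beside the hepatocyte markers given above. Angptl4, a secreted inhibitor of lipoprotein lipase, rose from 59.6, 16 and 130.3 to 451, 931 and 1096 (adjusted p = 0.00244).

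Transcription factors of stellate and mesenchymal cells moved in both directions. Of 33 tested, 13 were called higher and 10 lower (39.4% and 30.3%, beside 16.2% and 11.7% of all tested genes). Those lower became 5 without CCl4-fib replicate 2 or 3 and 6 without HSC replicate 1 or 2. Besides Lhx2, those that fell included the bile acid receptor Nr1h4 (FXR, 4554, 1038 and 3117 in HSCs and 237, 346 and 268 in CCl4-fib, log2 fold change -3.12, SE 0.55, adjusted p = 0.00208), and Gata4, which represses HSC activation, was called lower (763, 539 and 473 against 263, 229.6 and 176, adjusted p = 0.0228), a call lost without HSC replicate 1 or CCl4-fib replicate 2 or 3. Nr5a2, a nuclear receptor of hepatocytes, went from 22.2, 115 and 34.7 to 0. Among those that rose, Ebf1 and Ebf2, factors of mesenchymal and fat precursors, had no read in HSCs and 367, 113 and 81.1 and 155, 89.3 and 44.8 in CCl4-fib, at least 48.9- and 25.2-fold higher. Prrx1, a factor of limb and fibroblast mesenchyme, rose from 5.84, 11.7 and 13.2 to 324, 327 and 258 (log2 fold change 4.82, SE 0.47, adjusted p = 7.32e-05), Runx1, a regulator of myofibroblast genes, from 4.68, 13.1 and 23.9 to 257, 397 and 546 (log2 fold change 4.93, SE 0.61, adjusted p = 0.000268), and Osr1 from 0, 0 and 4.78 to 358, 479.7 and 67.7 (log2 fold change 6.99, SE 0.89, adjusted p = 0.000311). Wt1, which marks the mesothelium and its mesenchymal descendants, rose from 43.2, 61.2 and 41.8 to 859.6, 1649 and 1604 (log2 fold change 4.75, SE 0.36, adjusted p = 2.59e-05). Twist1, a factor of epithelial to mesenchymal transition, was not called (35.1, 62.6 and 16.7 against 69, 76.5 and 63, adjusted p = 0.217).

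Markers of 2 further mesenchymal cell types of the liver, the portal fibroblast and the mesothelial cell, were higher in CCl4-fib. Of 20 portal fibroblast markers 15 were called higher and 2 lower (median log2 fold change 4.97, 4.64 with genes at the floor set to their bound and 3.98 after the GC correction), and the list summed to between 4249 and 5840 in HSC libraries and to between 24771 and 37815 in CCl4-fib. Dpt (dermatopontin), a small matrix protein, was at 47.9, 48 and 50.2 in HSCs and 4938, 4409 and 4646 in CCl4-fib (log2 fold change 6.55, SE 0.30, adjusted p = 5.48e-06). Cd34, a sialomucin of progenitor and adventitial cells, was at 52.6, 93.2 and 115 against 3218, 2811 and 2822 (log2 fold change 5.14, SE 0.44, adjusted p = 3.81e-05), and Thy1, a surface glycoprotein of portal fibroblasts, at 9.35, 0 and 7.17 against 92.9, 91 and 109 (log2 fold change 4.48, SE 0.87, adjusted p = 0.00354). The list shares Eln, Fbln2 and microfibril genes with the matrix lists. Of 15 tested mesothelial markers 12 were called higher and 0 lower (median 4.15, or 3.52 without HSC replicate 2), and their sums were 3537 to 6995 in HSCs and 42235 to 51553 in CCl4-fib. Msln (mesothelin) was at 265, 24.8 and 298 in HSCs and 5220.2, 2805 and 2298 in CCl4-fib (log2 fold change 4.67, SE 1.04, adjusted p = 0.00761), Upk3b (uroplakin 3B), a membrane protein of mesothelium, at 29.2, 10.2 and 64.6 against 3916, 3023 and 1196 (log2 fold change 6.43, SE 0.83, adjusted p = 0.000329), and the keratin Krt19 at 3.51, 4.37 and 17.9 against 2174, 2699 and 771 (log2 fold change 7.75, SE 0.86, adjusted p = 0.000136). For Msln and Upk3b, HSC replicate 2 was the lowest of the HSC libraries. Krt19 and Krt7 (12.9, 2.91 and 13.2 against 241, 304 and 364) also mark cholangiocytes. Of 13 tested cholangiocyte markers 4 were called higher (30.8%, beside 16.2% of all tested genes) and 0 lower. The 4 were Krt7, Krt19, Spp1 and Sox9. This list summed to between 529 and 1968 in HSCs and to between 4088 and 5432 in CCl4-fib. Epcam, another defining gene of that epithelium, was near the floor, at 0, 2.91 and 0 in HSCs and 7.94, 0.850 and 1.91 in CCl4-fib. The part of cholangiocyte RNA was not tested. How many cells of each origin the CD45- GFP+ gate held was not measured in these libraries.

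Markers of parenchymal and endothelial cells and of macrophages were lower in CCl4-fib in most cases. All 25 sinusoidal endothelial markers were called lower, with a median log2 fold change of -5.48 (-5.15 with genes at the floor set to their bound), and the count stayed at 25 with any of the 6 libraries left out. Stab2 (stabilin 2), a scavenger receptor of the sinusoid, was at 805, 507 and 1368 in HSCs and 3.97, 21.3 and 21 in CCl4-fib (log2 fold change -5.94, SE 0.82, adjusted p = 0.000527), and Clec4g, a lectin of the same cells, at 4881, 1884 and 6682 against 56.4, 35.7 and 32.4 (log2 fold change -6.58, SE 0.60, adjusted p = 5.14e-05). Of 29 hepatocyte markers 26 were called lower. Alb (albumin) was at 9062, 14161 and 11657 against 679, 617 and 829 (log2 fold change -4.02, SE 0.63, adjusted p = 0.00114), and Cyp2e1, the cytochrome P450 that converts CCl4 to its radical, at 3499, 3423 and 10367 against 377, 205 and 84.9 (log2 fold change -4.73, SE 0.59, adjusted p = 0.000294). Of 22 macrophage and Kupffer markers, which include Ptprc, 19 were called lower. The gate left CD45+ cells out of CCl4-fib and not out of HSCs, so the sort bears on the direction of this list and the count is a description. Among these genes was Vsig4, a complement receptor of Kupffer cells (715, 2062 and 2055 against 0, 12.8 and 8.59, log2 fold change -8.15, SE 1.02, adjusted p = 0.000279), and among those not called was the complement component C1qa (33.9, 91.7 and 259 against 15.1, 27.2 and 20.0, adjusted p = 0.0726), which was called lower with edgeR, DESeq2 and after the GC correction, among others.

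**Figure D5:**
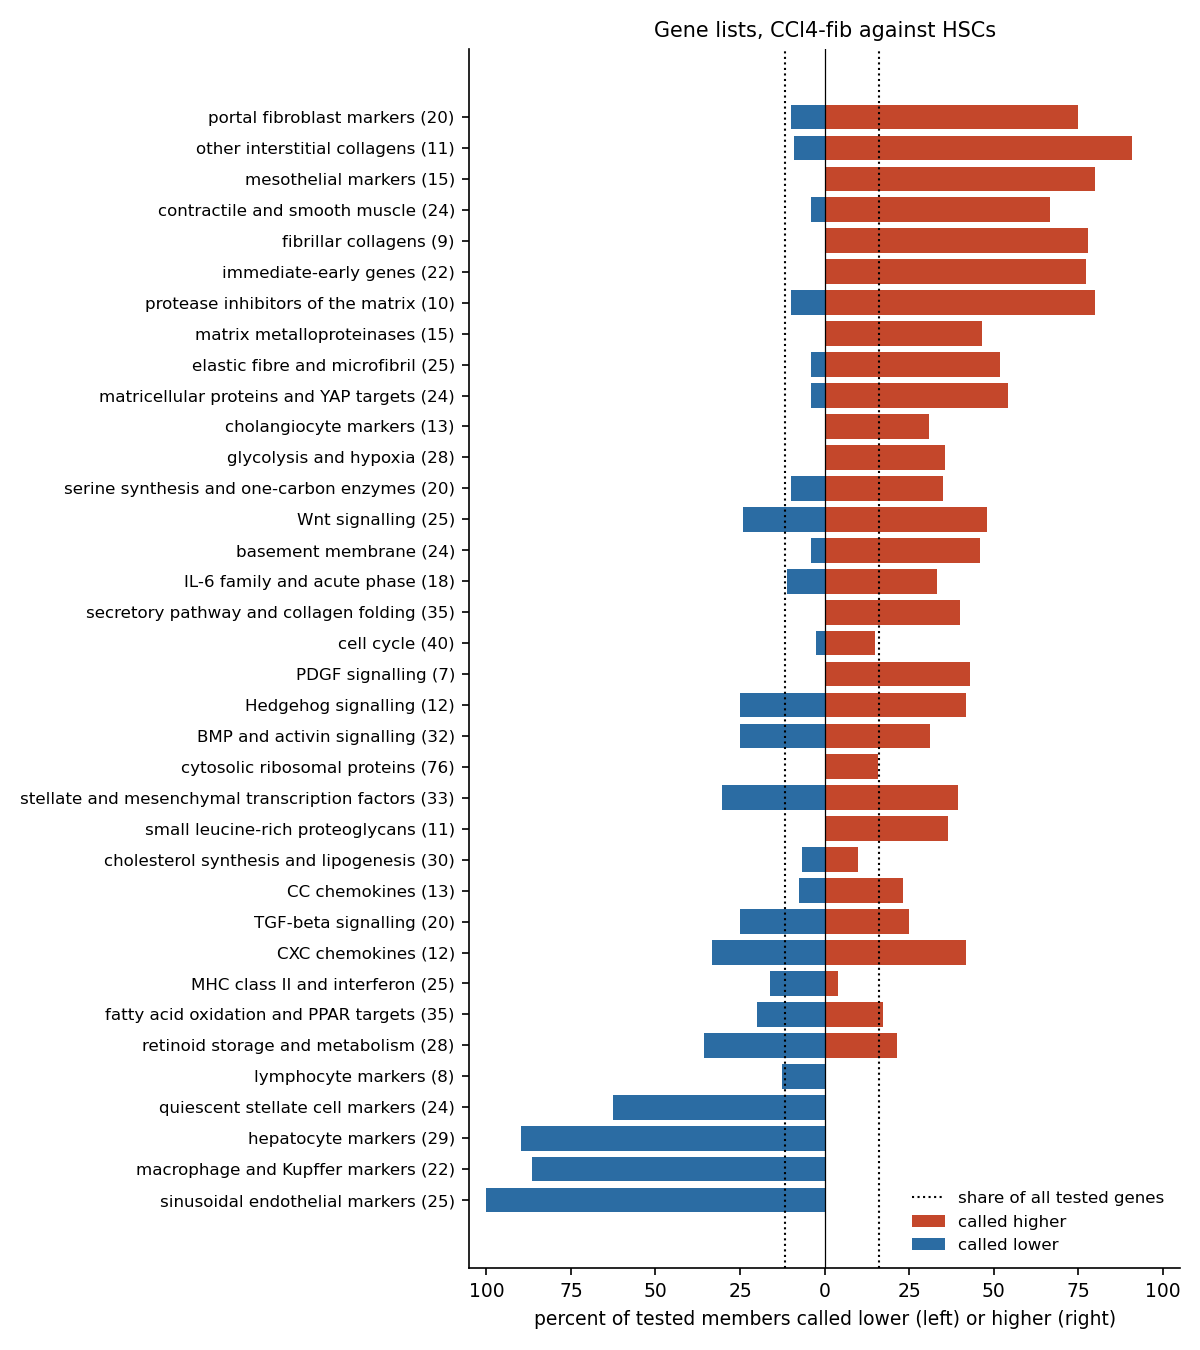
For each gene list (number of tested members in brackets), bars give the percentage of tested members called higher in CCl4-fib (red, to the right) and called lower (blue, to the left), in the order of the lists' median log2 fold change. Dotted lines mark the share of all tested genes, 16.2% higher and 11.7% lower.

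NASH-fib, sorted through the same gate, show where CCl4-fib differ from the other activated fibroblasts. In the same fit, 773 of the 13651 tested genes (5.66%) had a call above NASH-fib in CCl4-fib and 678 (4.97%) a call below, and the NASH-fib libraries spread more (median SD of 0.71 on the log2 scale). Across tested genes, NASH-fib replicate 1 correlated at 0.768 and 0.815 with the other NASH-fib libraries, at 0.793 with HSC replicate 2 and at 0.604 to 0.639 with CCl4-fib, whereas NASH-fib replicate 2 correlated at 0.830 to 0.856 with CCl4-fib. NASH-fib replicate 1 shares the first part of its library name with HSC replicate 2 and CCl4-fib replicate 1. NASH-fib replicates 2 and 3 share theirs with CCl4-fib replicate 3. Of the 284 genes named by rule, 50 were higher and 47 lower. Serpinb2 was at 0, 0.890 and 0 in NASH-fib, a value near 0 as in HSCs (adjusted p = 0.00376 against CCl4-fib). Also low in NASH-fib were Calca, at 8.16, 10.7 and 7.86 (adjusted p = 0.002), and Lgals7, at 0, 2.67 and 2.95 (adjusted p = 0.002). The chemokine Cxcl5 was at 32.6, 35.6 and 48.2 in NASH-fib (log2 fold change 6.21, adjusted p = 0.002), Cxcl1 at 95.2, 134 and 88.5 (adjusted p = 0.0156) and Saa3 at 20.4, 444 and 109 (adjusted p = 0.01), all below every CCl4-fib library. Of the serine enzymes, Phgdh was at 2.72, 16.9 and 16.7 in NASH-fib and higher in CCl4-fib (adjusted p = 0.0124), while Psat1 was not called (87, 166 and 280.1 in NASH-fib, adjusted p = 0.506). Col1a1 was at 4729, 4498 and 3738 in NASH-fib, and 7 of the 9 tested fibrillar collagens were higher in CCl4-fib. The contractile genes did not show this, with 1 of 24 called higher in CCl4-fib, and Acta2 was at 5300.2, 8983 and 8846 in NASH-fib (log2 fold change -0.24, adjusted p = 0.701). Called higher in CCl4-fib than in NASH-fib were 3 of 22 immediate-early genes, 2 of 20 portal fibroblast and 1 of 15 mesothelial markers, and 0, 0 and 1 lower. In NASH-fib these lists summed to 15593 to 21945, 16544 to 28254 and 43939 to 64343, above every HSC library, so their rise was not particular to CCl4-fib. In the other direction, the collagenase Mmp13 was at 569.6, 471 and 179 in NASH-fib and lower in CCl4-fib (log2 fold change -7.17, adjusted p = 0.0106), and Ebf1 at 995, 704 and 619 (log2 fold change -2.33, adjusted p = 0.0301). Also lower in CCl4-fib than in NASH-fib were 18 of the 29 hepatocyte, 14 of the 25 sinusoidal endothelial and 11 of the 22 macrophage markers, so these markers differed between the sorted groups too, and their part in these differences was not tested. The 50 and 47 named genes became 19 and 5 without NASH-fib replicate 3, 37 and 22 without its replicate 1, and 27 and 18, 14 and 10, and 28 and 17 without CCl4-fib replicate 1, 2 or 3.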

How the data were processed

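RNA was extracted from sorted CCl4-fib and NASH-fib and from HSCs, amplified (SMARTer) and sequenced as single ends on a Genome Analyzer IIx. The study's methods and the submitters' processing notes name CASAVA, STAR and mm10. The authors counted reads over RefSeq exons on both strands with HOMER, at most 3 per position, and report a scaling of 10 libraries together with DESeq2 within HOMER. The deposited values are a signal of whole reads times 1 factor per library, and dividing by it gave whole numbers for 100% of values (within 0.0101 of the scaled value). They sum to the same total in every library, so this factor follows total reads. DESeq2 size factors computed here from the recovered reads differed from it, at 0.87 to 1.13 times the level set by total reads. The tenth library was not analysed here.

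Because the deposited unit is not a raw count, the test was limma 3.58.1 (trend) in R 4.3.3 on log2(value + 1), so a fold change understates that of low genes. All 9 libraries entered 1 fit, after a filter (filterByExpr, minimum count 10) that kept 13651 of 24453 genes. P-values measure the spread between these pooled libraries. As alternatives, edgeR 4.0.16 and DESeq2 1.42.0 were run on the recovered reads, and scaling, filter, pseudocount, samples, blocks, GC correction and left-out libraries were varied. The GC correction and the fits without a NASH-fib library were chosen after seeing the data. The scripts were tested on simulated data.

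Groups came from sample titles. The comparison, the 36 gene lists and the tests were chosen with earlier results of these data known. The genes named by rule were, in each direction, the 10 called genes that changed most and whose groups did not overlap, the defining members of each list, the 3 called members of each list that rose or fell most, and Ptprc and Col1a2. Bgn, Lum and other defining members appear whether called or not. Counting without strand cannot tell overlapping genes apart, which touches Aspn, Tagln, Timp1, Eng, Ltbp2, Des, Cd34, Gli1, Pdgfra, Ccl6, Cxcl10, Boc, Gli2, Ccnd2, Plod2, Ebf2, Ntn1, Stab1, Cdh5, Cd74 and Gbp2. Promoter sequences are from RefSeq on GRCm38.p6, the build mm10. GC content was available for 96.5% of tested genes.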

Additional observations from a re-analysis of the deposited data

How the results depend on the processing

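None of the 232 named genes called reversed its direction under the alternatives run. Of these, 223 kept their call with edgeR, 232 with DESeq2, 229 with TMM scaling, 219 after the GC correction, 204 with a block for the first part of the library name, and 202 to 221 with 1 of the 6 libraries left out. The library name block ended, among the genes described, the calls of Bambi, Ccnd2, Cnn3, Col14a1, Gata4, Il6st, Loxl4, Osmr, Plod2 and Smad7. The genes called higher and lower numbered 1876 and 1716 with edgeR, 2458 and 2125 with DESeq2, 1913 and 1922 after the GC correction, 1082 and 925 with a mean value of at least 100 (where fewer genes were tested), and 1422 and 1054 with the library name block. Left-out libraries, NASH-fib included, gave 1335 to 2836 higher and 1084 to 1872 lower. Against NASH-fib, the library name block left 26 named genes lower, and left-out libraries gave 14 to 55 higher and 5 to 52 lower.

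Replicate numbers give no pairing: the deviations of HSC and CCl4-fib libraries of the same number correlated at 0.035, 0.035 and -0.038, and those sharing a name prefix at -0.072 and -0.020. With the replicate block 1915 genes were called higher and 1397 lower, and 225 of the 232 named genes kept their call.

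Of 720 list medians, 665 moved by less than the spread between replicates, taken as the larger SD of HSCs and CCl4-fib. Those 665 include every median from the fit on 6 libraries, the replicate block and the fits without a NASH-fib library. These settings cannot change a median, so the count overstates how little the medians moved. Of the 22 lists with a median over 1 in size, 0 changed sign. The medians that moved by more follow as log2 fold changes, and the cause was not tested. After the GC correction the medians were -1.07 (retinoid), 2.10 (fibrillar collagens), 1.60 (elastic fibre), 1.21 (matricellular), 2.21 (protease inhibitors), 0.58 (Wnt), -0.0053 (Hedgehog), 0.39 (BMP), 2.09 (immediate-early), 0.59 (cell cycle), 0.92 (secretory), 1.05 (glycolysis), -0.28 (transcription factors), 3.98 (portal fibroblast) and -5.87 (sinusoidal endothelial). With a mean value of at least 100 they were -1.07 (retinoid), 1.49 (matricellular), 3.41 (metalloproteinases), 2.23 (Hedgehog), -0.11 (BMP), 1.57 (CC chemokines), 0.30 (cell cycle), -0.58 (transcription factors) and 4.00 (cholangiocyte). With a pseudocount of 10 they were 2.58 (fibrillar collagens), 1.74 (metalloproteinases), 2.31 (immediate-early), 4.28 (portal fibroblast), -4.33 (sinusoidal endothelial), -3.36 (macrophage), -0.68 (lymphocyte) and 0.46 (cholangiocyte). Without a filter on low values they were 2.59 (fibrillar collagens), 1.26 (metalloproteinases), 2.10 (protease inhibitors) and 0.17 (BMP). With edgeR they were 1.56 (elastic fibre), 1.62 (metalloproteinases) and -3.02 (lymphocyte), and with DESeq2 1.59 (elastic fibre), 1.45 (metalloproteinases) and 1.34 (Hedgehog). With the library name block they were 1.09 (glycolysis) and -5.15 (sinusoidal endothelial). With 1 library left out, the medians ran from 1.58 to 2.82 (elastic fibre and microfibril), -0.33 to 0.017 (TGF-beta signalling), 0.34 to 1.47 (Hedgehog signalling), 0.35 to 1.08 (BMP and activin signalling), 1.33 to 1.84 (glycolysis and hypoxia), 3.52 to 4.23 (mesothelial markers) and -5.58 to -5.10 (sinusoidal endothelial markers).

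Depth limits the genes with few reads: a gene at 0 in a group was only shown to lie under the floor of 3 reads. Copies of near-identical genes and genes past the limit of reads per position have less certain folds.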
